A study of Mus musculus with 9 samples.

Results

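The unfolded protein response and the Atf4 amino acid response were followed through 38 genes, chosen by symbol for their known roles, out of 27179 genes in the count table. The choice was made with earlier results of these data known. All 38 were found by their Entrez identifiers. RNA was sequenced from HPC7, a mouse cell line with the character of early blood progenitors, after retroviral transduction and a sort for green fluorescence 1 week later. Of the 3 groups of 3 libraries, the first carried wild-type Snai1, the second a mutant Snai1, and the third the same MSCV-IRES-GFP vector with no inserted gene. In the mutant, alanine takes the place of phenylalanine at residue 5, which impairs contact with Lsd1, a histone demethylase whose gene is Kdm1a. The wild-type and mutant vectors were set against each other to ask how far an effect of Snai1, a zinc finger repressor, depends on that residue. Every group was grown in RPMI with 100 ng/ml stem cell factor, 10% serum and 0.05 mM 2-mercaptoethanol, a reducing agent. The model is a single line with Snai1 driven from a virus. The labels do not say whether replicates came from separate transductions or cultures, so the p-values speak for the spread among these libraries alone, part of which may be technical.

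Secreted and membrane proteins fold in the endoplasmic reticulum (ER), and unfolded protein there is sensed by Ire1 (the Ern1 product), Perk (the Eif2ak3 product) and Atf6. Ire1 splices Xbp1 mRNA and Atf6 is released by cleavage, after which both products switch on genes for chaperones and for the disposal of misfolded protein. Perk phosphorylates the translation factor eIF2, which favours translation of Atf4, and amino acid shortage reaches Atf4 through another eIF2 kinase, Gcn2. Atf4 switches on genes for amino acid synthesis and uptake. Splicing, cleavage and translation are not read by a count of reads per gene.

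Both kinds of target gene are known for a short DNA element near their start, shown here because the ER genes and the amino acid genes behaved differently in the libraries described below. The ER stress response element, bound by Atf6 and spliced Xbp1 together with NF-Y, was searched as CCAAT followed after 9 bases by CCACG. The amino acid response element, bound by Atf4 with C/EBP proteins, was searched as TGATGNAAN. Both strands were read in windows from 250 bases before to 50 after the RefSeq start (GRCm38.p6), which 34 of the 38 genes had; Atf6, Slc7a5, Hyou1 and Manf had none. The ER stress element was found for 7 of the 34 genes (20.6%), Hspa5, Hsp90b1, Dnajc3, Calr, Canx, Creld2 and Pdia6. A gene with more than 1 window counted once. Of all 27025 genes with a window 37 had the element (0.137%), and of the tested genes with a window 0.157%. The amino acid element was found for 5 of the 34 (14.7%), Asns, Chac1, Trib3, Herpud1 and Slc7a11, against 4.50% of all genes with a window and 2.72% of the tested ones. Of these 5, only Slc7a11 is an amino acid enzyme or transporter gene with enough counts for a test. Phgdh, Psat1, Psph, Shmt2, Mthfd2 and Slc7a1 had windows without a match. A match describes letters in a window and not a bound site. Since the genes were chosen for known roles in these responses, and with earlier results of these data known, the shares are a description and not a test. In the lines below, capitals mark the fixed letters of each element. Hspa5 is at chr2:34772010-34772058 on the plus strand, Hsp90b1 at chr10:86705518-86705566 (plus) and chr10:86705623-86705671 (minus), Dnajc3 at chr14:118937812-118937860 (plus) and Pdia6 at chr12:17266476-17266524 (plus). For the amino acid element, Slc7a11 is at chr3:50443643-50443671 (plus) and chr3:50443661-50443689 (minus), Herpud1 at chr8:94386306-94386334 (minus) and Trib3 at chr2:152344029-152344057 (plus).
Hspa5, ER stress element: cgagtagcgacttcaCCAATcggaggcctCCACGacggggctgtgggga
Hsp90b1, ER stress element, plus strand: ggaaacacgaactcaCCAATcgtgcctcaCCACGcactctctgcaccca
Hsp90b1, ER stress element, minus strand: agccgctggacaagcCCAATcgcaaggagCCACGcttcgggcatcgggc
Dnajc3, ER stress element: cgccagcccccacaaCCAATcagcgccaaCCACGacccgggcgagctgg
Pdia6, ER stress element: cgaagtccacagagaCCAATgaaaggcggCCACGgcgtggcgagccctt
Slc7a11, amino acid element, plus strand: ggctgcatgaTGATGcAAattctccaggt
Slc7a11, amino acid element, minus strand: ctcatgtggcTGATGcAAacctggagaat
Herpud1, amino acid element: gggtgcgggcTGATGcAAcccgccgtggt
Trib3, amino acid element: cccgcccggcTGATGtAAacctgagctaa
These positions are of the printed stretches, which include flanking bases; the Slc7a11 stretches overlap in their flanks, with 9 bases between the elements themselves. The spacer of the ER stress element and the open letters of the amino acid element differ between genes. Besides these, the Xbp1-type element TGACGTGG was found for 0 of the 34 genes, against 0.714% of all genes with a window and 1.035% of the tested ones. The E-box CAGGTG, the motif of Snai1, was found for 7 of the 34 (20.6%), against 22.6% of all genes with a window and 20.3% of the tested ones.

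Total counts ran from 18332451 to 20860314 per library. Snai1 had 8540, 9978 and 11213 counts with wild-type Snai1, 9237, 8321 and 9655 with mutant Snai1, and 20, 15 and 13 with empty vector. Kdm1a averaged 201 ± 7.55 CPM (counts-per-million values) with wild-type Snai1, 199 ± 2.01 CPM with mutant Snai1 and 201 ± 1.22 CPM with empty vector (SD, n = 3 each). Wild-type replicate 1 stood apart: 467 of the 12484 tested genes lay at least 2-fold from both other wild-type libraries, against 25 to 67 genes in each other library. The main counts and the members with full values are therefore given with and without it. The 8 progenitor markers were present in every library, summing to 7800 to 9420 CPM with wild-type Snai1, 7430 to 7650 CPM with mutant Snai1 and 7450 to 7680 CPM with empty vector. With wild-type Snai1, Lmo2 (log2 fold change 1.01) and Cd34 (0.62) rose, Tal1 (-0.45) and Lyl1 (-0.29) fell, and Kit, Gata2, Lhx2 and Ptprc did not pass (edgeR). Without replicate 1 these passed too, Gata2 at 0.48 and Lhx2 at 0.72, Kit at -0.15 and Ptprc at -0.23 (edgeR adjusted p between 1.04e-07 and 0.0126). The other progenitor markers kept their calls.

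With wild-type Snai1, most genes for folding and disposal of ER proteins rose, the Atf6 gene among the sensors rose while those of Ire1 and Perk fell, and the amino acid genes differed between libraries. Of the 36 members with enough counts for a test, 20 rose and 3 fell against empty vector (edgeR quasi-likelihood test, Benjamini-Hochberg adjusted p under 0.05), and 13 passed in neither direction. Over all 12484 tested genes, 25.2% rose and 24.3% fell, so wild-type Snai1 changed 49.4% of them. The median log2 fold change was 0.24 over the members and 0.00 over all tested genes. In 18 members every wild-type library lay above every empty vector library, and in 3 below, against 28.1% and 28.5% of all tested genes. Without replicate 1 the counts were 24 members higher and 11 lower, with a median of 0.36, and all genes gave 29.9% and 28.8%. Asns, the asparagine synthetase gene, had 0 counts in all 9 libraries, where 3 counts would be 0.144 to 0.164 CPM. Chac1, which encodes a glutathione-degrading enzyme, had 0, 3 and 3 counts with wild-type Snai1, 1, 0 and 0 with mutant Snai1 and 0 in each empty vector library, and neither gene was tested.

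**Figure D1:**
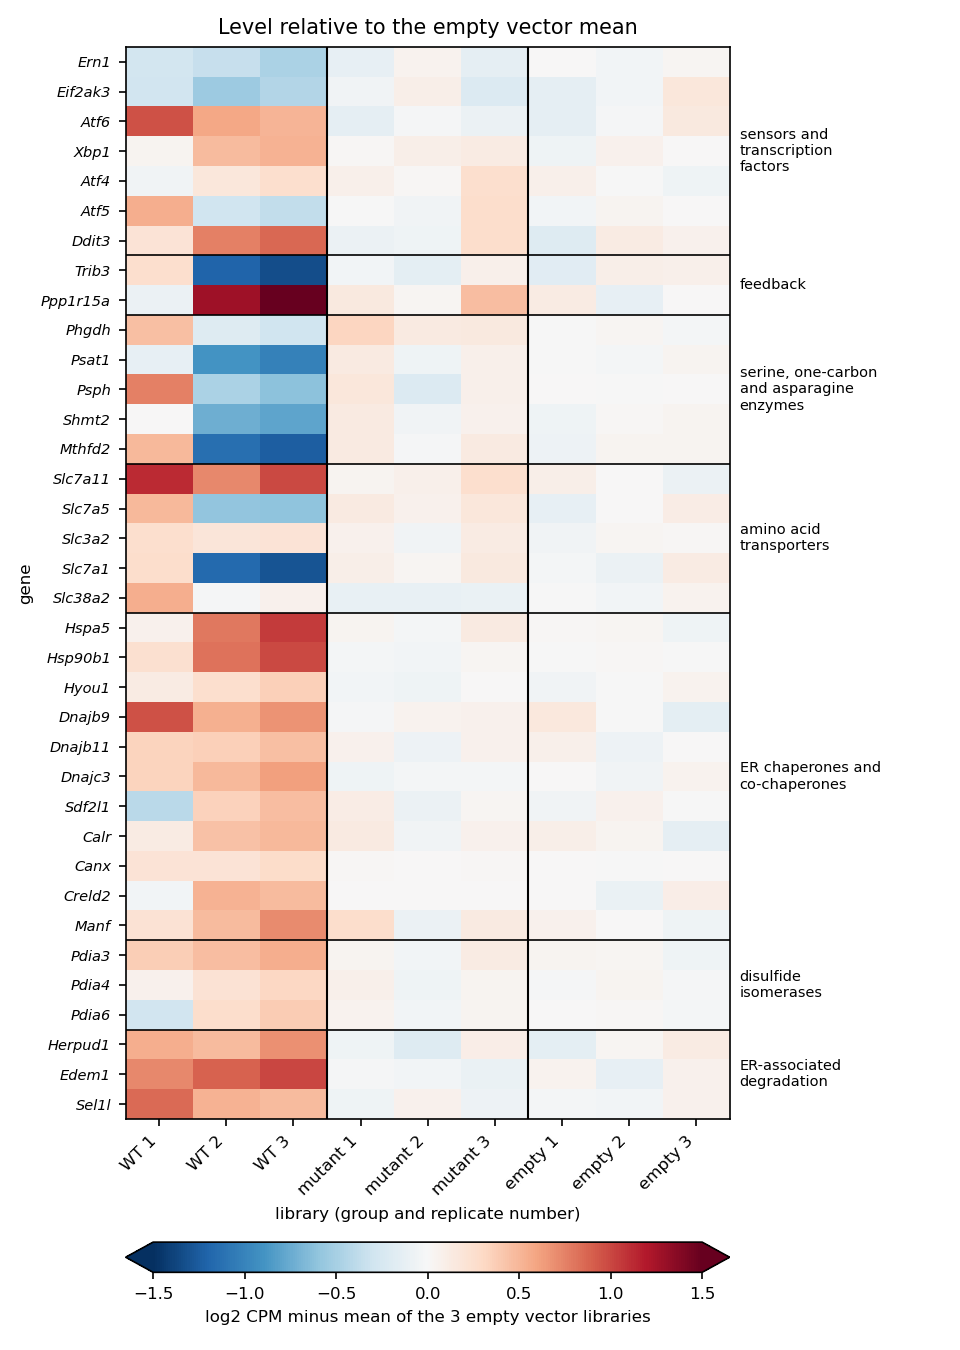
Level of the 36 tested members in each of the 9 libraries, as log2 CPM minus the mean of the 3 empty vector libraries (red above, blue below, scale -1.5 to 1.5, with Ppp1r15a beyond the scale in 1 wild-type library). The wild-type columns are red through most ER rows, and the amino acid rows are red in wild-type replicate 1 and blue in replicates 2 and 3 for most genes.

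Among the sensors, the genes of Ire1 and Perk fell with wild-type Snai1 while that of Atf6 rose. Ern1 (gene 78943, chr11:106397620-106487796), the kinase and nuclease that splices Xbp1, was at 57.6, 55.5 and 50.6 CPM with wild-type Snai1, 64.6, 72.7 and 64.0 CPM with mutant Snai1, and 70.8, 68.4 and 71.6 CPM with empty vector. Each wild-type library was below every other library. The log2 fold change against empty vector was -0.36 (SE 0.07, edgeR adjusted p = 0.00191), and -0.40 without wild-type replicate 1. Eif2ak3 (gene 13666, chr6:70844484-70905241), the Perk kinase, was at 26.8, 22.3 and 24.1 CPM with wild-type Snai1, 31.7, 34.9 and 28.4 CPM with mutant Snai1, and 30.0, 31.9 and 36.8 CPM with empty vector. Again the wild-type libraries were the lowest without overlap, and the log2 fold change was -0.43 (SE 0.11, edgeR adjusted p = 0.00738), or -0.50 without replicate 1. Atf6 (gene 226641, chr1:170704457-170868585), the membrane-bound factor, was at 234, 180 and 171 CPM with wild-type Snai1, 110, 118 and 113 CPM with mutant Snai1, and 110, 119 and 134 CPM with empty vector. All wild-type libraries were above the other 6, replicate 1 highest, with a log2 fold change of 0.69 (SE 0.12, edgeR adjusted p = 0.000769), or 0.54 without replicate 1.

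Among the transcription factors, Xbp1 and Ddit3 rose and Atf4 did not pass the test. Xbp1 (gene 22433, chr11:5520641-5525993) was at 74.4, 101 and 103 CPM with wild-type Snai1, 72.9, 77.0 and 78.3 CPM with mutant Snai1, and 69.1, 75.1 and 72.2 CPM with empty vector. Wild-type replicate 1 lay among the empty vector libraries and the other two above them. The log2 fold change was 0.36 (SE 0.11, edgeR adjusted p = 0.0185), or 0.50 without replicate 1. This call was lost without wild-type replicate 2 (edgeR adjusted p = 0.065), wild-type replicate 3 (0.0511) or empty vector replicate 1 (0.0708). Ddit3 (gene 13198, chr10:127290793-127296291), the Chop factor linked to cell death in lasting ER stress, was at 58.1, 84.5 and 91.4 CPM with wild-type Snai1, 47.2, 47.8 and 60.2 CPM with mutant Snai1, and 44.1, 54.6 and 52.5 CPM with empty vector. The wild-type libraries were all above empty vector, replicate 1 by the least, and the log2 fold change was 0.63 (SE 0.17, edgeR adjusted p = 0.0116), or 0.80 without replicate 1. Atf4 (gene 11911, chr15:80255184-80257545) was at 132, 153 and 162 CPM with wild-type Snai1, 144, 138 and 162 CPM with mutant Snai1, and 145, 135 and 130 CPM with empty vector. The groups overlapped, and the log2 fold change of 0.13 (SE 0.09, 95% interval -0.07 to 0.32) had an edgeR adjusted p of 0.252. Without replicate 1 it was 0.21 (edgeR adjusted p = 0.0114). Atf5, a relative of Atf4 that is also controlled at translation, had a log2 fold change of 0.02 (edgeR adjusted p = 0.939), from 33.1 CPM in wild-type replicate 1 and 18.2 and 17.4 CPM in replicates 2 and 3, against 21.9 to 23.2 CPM with empty vector.

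The feedback genes moved in opposite ways in wild-type replicates 2 and 3. Ppp1r15a (gene 17872, chr7:45522917-45526268) encodes Gadd34, which directs a phosphatase to eIF2 and so ends the block of translation. It was at 58.4, 150 and 188 CPM with wild-type Snai1, 69.0, 63.5 and 85.5 CPM with mutant Snai1, and 67.2, 57.1 and 62.2 CPM with empty vector. Replicate 1 lay within the empty vector range and the other wild-type libraries far above it. The log2 fold change was 1.09 (SE 0.37, edgeR adjusted p = 0.0396), or 1.44 without replicate 1 (edgeR adjusted p = 8.21e-05). The call was lost without any 1 of 6 other libraries, wild-type replicates 2 and 3 among them (edgeR adjusted p = 0.112 and 0.119), mutant replicate 1 (0.0539) and empty vector replicates 1, 2 and 3 (0.0561, 0.0993 and 0.0784). Trib3, a pseudokinase that restrains Atf4 and Ddit3, was at 30.6, 11.1 and 10.1 CPM with wild-type Snai1, against 22.9, 27.3 and 27.1 CPM with empty vector. Its replicates 2 and 3 were below every empty vector library and replicate 1 above them all, so that the log2 fold change of -0.58 (SE 0.37) had an edgeR adjusted p of 0.236, and one of -1.28 without replicate 1 had 4.09e-08.

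Of the 5 tested serine and one-carbon enzymes 1 fell and 0 rose with all libraries, against 24.3% and 25.2% of all tested genes. In wild-type replicates 2 and 3 all 5 were below every empty vector library, as were 4486 of all 12484 tested genes. Psat1 (gene 107272, chr19:15905123-15925059), the aminotransferase of the serine pathway, was at 355, 208 and 193 CPM with wild-type Snai1, 425, 369 and 410 CPM with mutant Snai1, and 384, 380 and 398 CPM with empty vector. All wild-type libraries were the lowest, replicate 1 close to the others' range. The log2 fold change was -0.62 (SE 0.20, edgeR adjusted p = 0.0307), or -0.95 without replicate 1 (edgeR adjusted p = 1.92e-09). It was no longer called without wild-type replicate 2 (0.0996) or 3 (0.0945) or without empty vector replicate 1, 2 or 3 (0.0571, 0.0638 and 0.0819). Mthfd2, the mitochondrial folate dehydrogenase, was at 172, 55.9 and 51.9 CPM with wild-type Snai1, against 116, 126 and 126 CPM with empty vector. Psph, the phosphatase that makes serine, was at 82.3, 34.9 and 31.8 CPM with wild-type Snai1, against 48.6, 48.2 and 48.7 CPM with empty vector. Both genes had wild-type replicate 1 above the empty vector libraries and replicates 2 and 3 below, and neither passed the test (log2 fold changes -0.39 and 0.03, edgeR adjusted p = 0.475 and 0.943). Of the exon bases of Psph, 10.4% lie under Cct6a on the other strand, and the strand setting of the counting is not given in the sources used here. Shmt2, the mitochondrial serine hydroxymethyltransferase, had -0.46 (edgeR adjusted p = 0.0667), and Phgdh, the first enzyme of the serine pathway, 0.02 (edgeR adjusted p = 0.923). Without replicate 1 all 5 were lower, with a median log2 fold change of -0.76 and a range of -1.18 to -0.25. In that fit 28.8% of all tested genes were lower.

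The amino acid transporters did not move together. Slc7a11 (gene 26570, chr3:50364936-50499087), the cystine and glutamate exchanger that supplies cystine for glutathione, was at 13.1, 9.89 and 11.9 CPM with wild-type Snai1, 6.11, 6.29 and 7.10 CPM with mutant Snai1, and 6.33, 5.97 and 5.58 CPM with empty vector. The wild-type libraries were clear of the other 6. The log2 fold change was 0.96 (SE 0.13, edgeR adjusted p = 0.000186), or 0.87 without replicate 1. Its RefSeq window, with the pair of amino acid elements printed above, starts inside the longer span of the gene given here. Slc3a2, the heavy chain partner of Slc7a11 and Slc7a5, rose by 0.21 (SE 0.06, edgeR adjusted p = 0.0109), a call lost without empty vector replicate 1 (0.0592). Slc7a1, which imports arginine and lysine, was at 158, 58.8 and 54.1 CPM with wild-type Snai1, against 130, 124 and 144 CPM with empty vector. Slc7a5, which imports leucine and other large amino acids, was at 417, 197 and 196 CPM with wild-type Snai1, against 274, 298 and 320 CPM with empty vector. In both, wild-type replicate 1 was the highest library and replicates 2 and 3 the lowest, and the log2 fold changes of -0.55 and -0.14 did not pass (edgeR adjusted p = 0.259 and 0.694). Without replicate 1 they were -1.23 and -0.60, both called. Slc38a2, which imports neutral amino acids such as alanine and glutamine, had a log2 fold change of 0.22 (edgeR adjusted p = 0.176), and 0.02 without replicate 1.

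ER chaperones rose broadly, with 9 of 11 called higher and 0 lower, against 25.2% and 24.3% of all tested genes. Their median log2 fold change was 0.38. Hspa5 (gene 14828, chr2:34772090-34776529), the Bip chaperone that also holds the sensors inactive, was at 452, 749 and 898 CPM with wild-type Snai1, 447, 427 and 478 CPM with mutant Snai1, and 442, 444 and 418 CPM with empty vector. Replicate 1 was just above the empty vector libraries and the other wild-type libraries well above. The log2 fold change was 0.69 (SE 0.20, edgeR adjusted p = 0.0205), or 0.92 without replicate 1 (edgeR adjusted p = 2.33e-08), and the call was lost without wild-type replicate 2 (0.0639) or empty vector replicate 2 (0.0507) or 3 (0.0542). Hsp90b1 (gene 22027, chr10:86690841-86705444), the Hsp90 of the ER known as Grp94, was at 589, 879 and 991 CPM with wild-type Snai1, 490, 486 and 509 CPM with mutant Snai1, and 497, 506 and 495 CPM with empty vector. No wild-type library overlapped the other 6, and the log2 fold change was 0.72 (SE 0.15, edgeR adjusted p = 0.00358), or 0.91 without replicate 1. Another gene overlaps 10.3% of the exon bases of Hsp90b1, so part of its reads are uncertain. Dnajb9 (gene 27362, chr12:44205897-44210068), the co-chaperone ERdj4, was at 39.9, 29.5 and 32.6 CPM with wild-type Snai1, 20.1, 21.1 and 21.3 CPM with mutant Snai1, and 22.8, 20.3 and 18.4 CPM with empty vector. Here replicate 1 was the highest of the wild-type libraries, all of which were clear of the rest, and the log2 fold change was 0.73 (SE 0.12, edgeR adjusted p = 0.000539), or 0.60 without replicate 1.

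**Figure D2:**
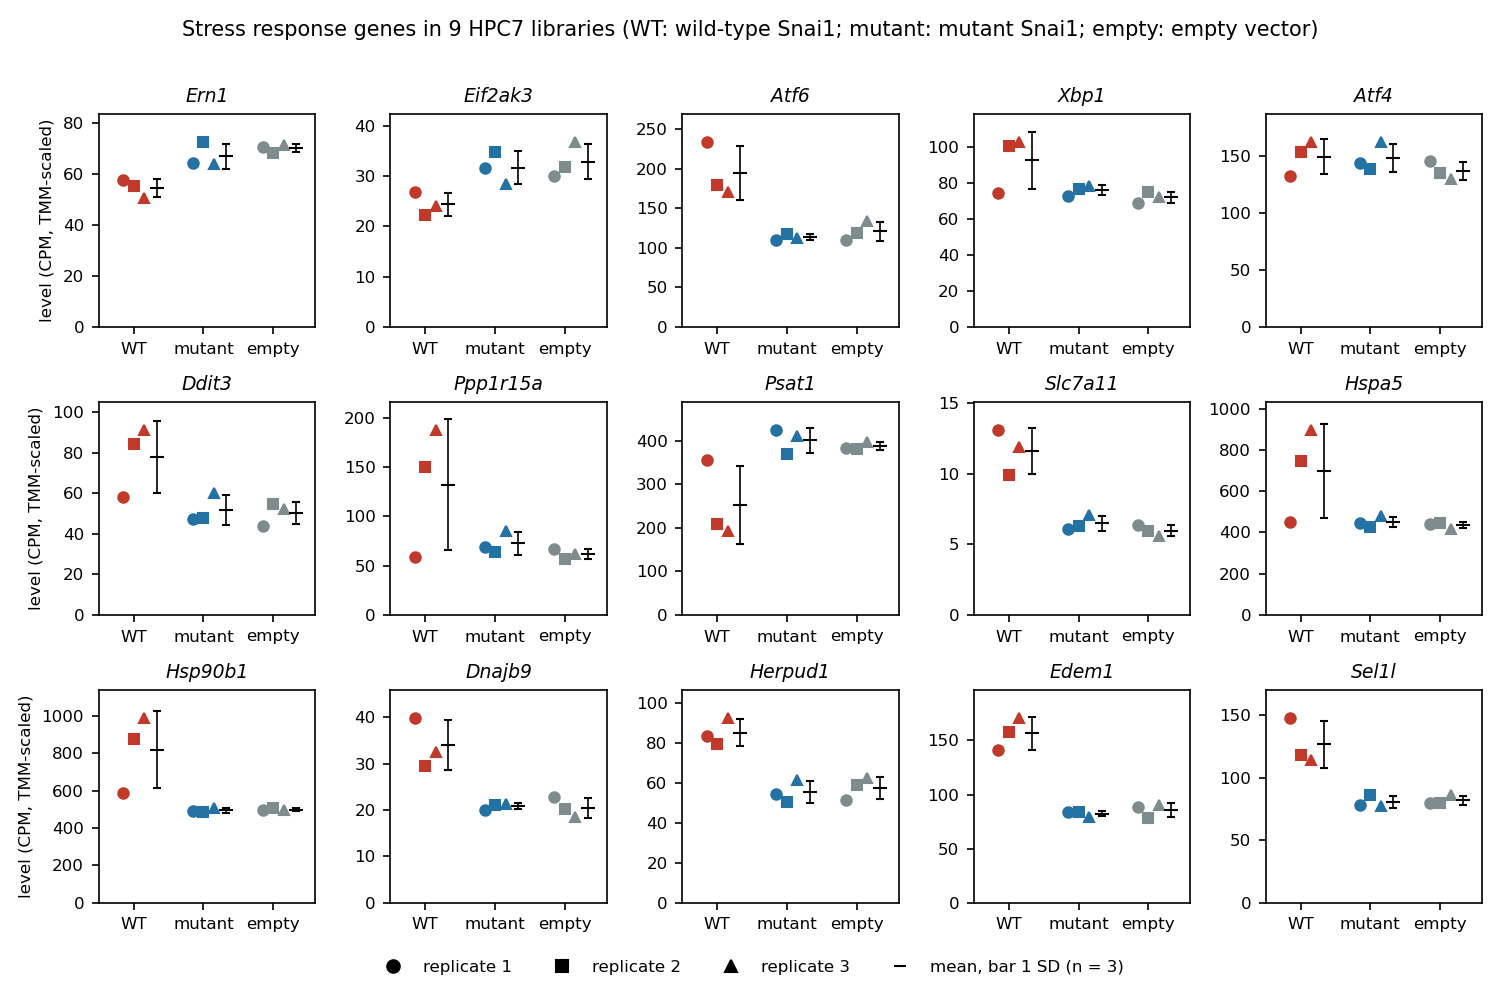
CPM (linear axis from 0) of 15 members in each library, with replicate numbers as marker shapes and the mean with a bar of 1 SD (n = 3) beside each group. Hspa5, Ppp1r15a, Xbp1 and Ddit3 show wild-type replicate 1 nearer to the other groups than replicates 2 and 3, while Atf6, Dnajb9 and Sel1l show it highest.

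The other chaperones that rose did so by less. Dnajc3, an inhibitor of eIF2 kinases and co-chaperone of Bip, rose by 0.48, the co-chaperone Dnajb11 by 0.38, and the stress-induced secreted protein gene Manf by 0.48. The lectin chaperones Calr and Canx, which hold glycoproteins during folding, rose by 0.36 and 0.23, and Hyou1, the exchange factor of Bip, by 0.25. Their edgeR adjusted p-values ran between 0.000304 for Dnajc3 and 0.013 for Calr, whose call was lost without empty vector replicate 3 (0.0515). Creld2 (0.34, edgeR adjusted p = 0.0529) and Sdf2l1 (0.18, edgeR adjusted p = 0.449), both stress-inducible ER proteins, missed the threshold. Without replicate 1 all 11 were called higher, with a median of 0.50, against 29.9% of all tested genes called higher.

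Of the disulfide isomerases, which form and rearrange disulfide bonds, 2 of 3 rose, against 25.2% of all tested genes. Pdia3, which works with Calr and Canx, rose by 0.46 (SE 0.07, edgeR adjusted p = 0.000226) with 736, 785 and 835 CPM in the wild-type libraries, against 586, 582 and 542 CPM with empty vector. Pdia4 rose by 0.20 (edgeR adjusted p = 0.0354), a call lost without any 1 of 6 libraries (wild-type replicate 2 or 3, mutant replicate 3, or any empty vector replicate), where the edgeR adjusted p ran between 0.0525 and 0.116. Pdia6, whose window holds the ER stress element shown above, was at 186, 270 and 295 CPM with wild-type Snai1, against 228, 230 and 222 CPM with empty vector, and did not pass (0.14, edgeR adjusted p = 0.413). Wild-type replicate 1 was its lowest library, and without it the log2 fold change was 0.32 (edgeR adjusted p = 6.06e-05).

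All 3 genes of ER-associated degradation, the removal of misfolded protein to the proteasome, rose, against 25.2% of all tested genes. Here replicate 1 too was far above the empty vector range. Edem1 (gene 192193, chr6:108824045-108859356), a lectin-like protein that marks misfolded glycoproteins, was at 141, 158 and 171 CPM with wild-type Snai1, 84.3, 83.5 and 79.7 CPM with mutant Snai1, and 88.6, 78.7 and 90.1 CPM with empty vector. The groups were far apart, and the log2 fold change of 0.87 (SE 0.08) had the smallest adjusted p of the 36 tested members (edgeR, 1.1e-05). Sel1l (gene 20338, chr12:91806043-91849157), the adaptor of the ubiquitin ligase Hrd1, was at 148, 118 and 114 CPM with wild-type Snai1, 78.3, 86.4 and 77.7 CPM with mutant Snai1, and 80.1, 79.8 and 86.3 CPM with empty vector. Its log2 fold change was 0.62 (SE 0.10, edgeR adjusted p = 0.000415). Herpud1 (gene 64209, chr8:94386429-94395371), an ER membrane partner of the same ligase, was at 83.2, 79.4 and 92.4 CPM with wild-type Snai1, 54.4, 50.2 and 61.3 CPM with mutant Snai1, and 51.5, 58.6 and 62.3 CPM with empty vector. No wild-type library overlapped the rest, and the log2 fold change was 0.56 (SE 0.10, edgeR adjusted p = 0.000769). Without replicate 1 these log2 fold changes were 0.94 for Edem1, 0.50 for Sel1l and 0.58 for Herpud1.

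The ER genes rose both with and without a match to the ER stress element as searched. Only that exact form was searched, so a window without a match may still hold a variant of it. Of the 7 ER members with a match, 5 rose, with log2 fold changes of 0.14 to 0.72 and a median of 0.36. Of the 8 with a window and no match, 7 rose, with 0.18 to 0.87 and a median of 0.51. The 2 without a window, Hyou1 and Manf, both rose. Without wild-type replicate 1, all 7 with a match and all 8 with a window and no match rose, each with a median of 0.50. Of all tested genes 25.2% rose with all libraries and 29.9% without that replicate.

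Wild-type replicate 1 differed from replicates 2 and 3 in opposite directions in the amino acid genes and in most ER genes. The median of the 17 ER folding and degradation members, on the log2 CPM scale relative to the empty vector mean, was 0.22, 0.47 and 0.49 in wild-type replicates 1, 2 and 3. The median of the 10 tested amino acid enzymes and transporters was 0.47 in replicate 1 but -0.53 and -0.60 in replicates 2 and 3. Replicate 1 was above both other wild-type libraries in 10 of 10 of these amino acid genes, where 42.9% of all tested genes had that order. It was below both in 14 of 17 ER members, against 43.7% of all tested genes. Over all tested genes the medians were -0.02, 0.01 and 0.00, which TMM scaling brings near 0 in every library. The ER-associated degradation genes, at 0.72, 0.52 and 0.69, were high in every wild-type library.

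**Figure D3:**
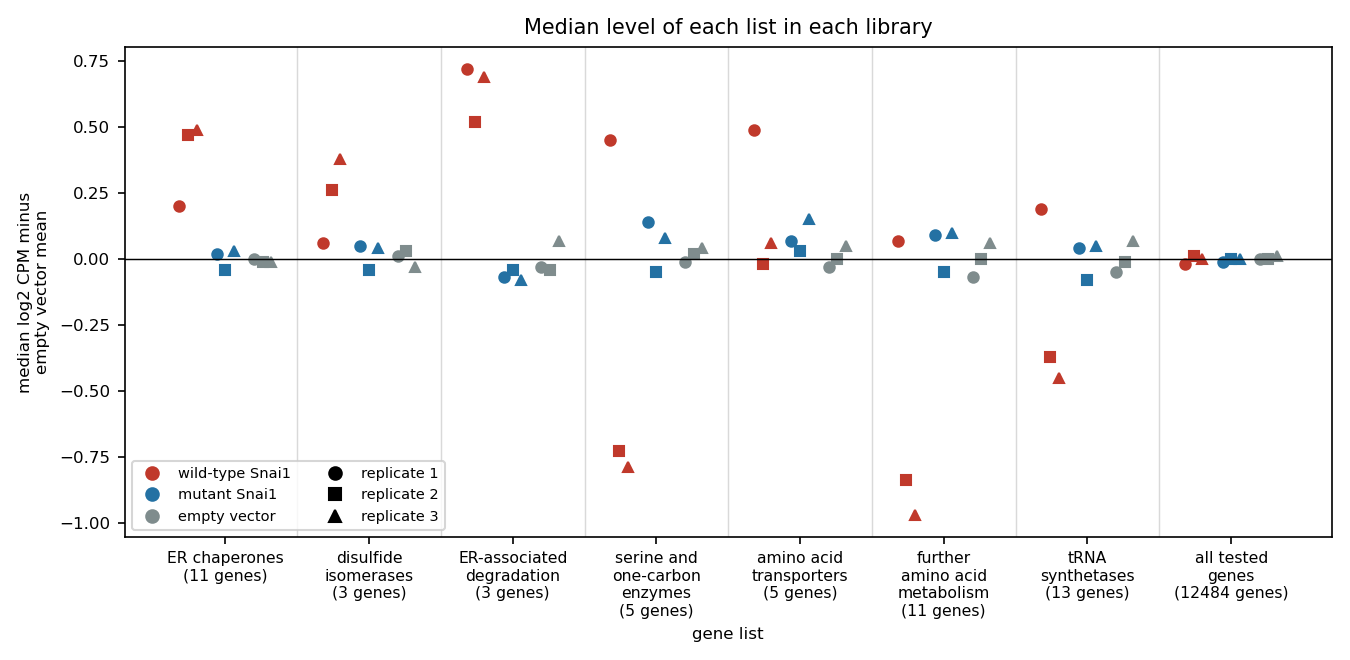
Median over each gene list of log2 CPM minus the empty vector mean, 1 point per library, with colour for the group and marker shape for the replicate number. The wild-type points of the serine and one-carbon enzymes lie at 0.45, -0.73 and -0.79, while those of ER-associated degradation are all at 0.52 or above.

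Mutant Snai1 changed no member past the threshold. Against empty vector 0 of 36 members were called higher or lower, where 0.00801% of all tested genes were called (1 gene, higher, and 0.0% lower). No member had an unadjusted p under 0.05 in edgeR, against 603 of all tested genes (4.83%), and DESeq2 and limma-voom also called 0 members. The log2 fold changes ran between -0.11 and 0.22 with a median of 0.02, and the smallest edgeR adjusted p was 0.998. For the tightly measured members the 95% intervals were narrow, such as -0.23 to 0.12 for Edem1, -0.09 to 0.11 for Canx and -0.12 to 0.16 for Dnajb11. For members that varied among the wild-type libraries, which share the fit, they were wide, such as -0.63 to 1.07 for Ppp1r15a and -0.89 to 1.06 for Mthfd2. Groups did not overlap in 1 member with the mutant higher (Phgdh) and 1 with it lower (Slc38a2), against 8.53% and 9.04% of all tested genes. Without wild-type replicate 1 in the fit, members called stayed at 0, and all genes gave 28 higher and 34 lower (0.222% and 0.269%). In that fit 3 of the 36 members had an unadjusted edgeR p under 0.05, and the smallest adjusted p was 0.145. The share of all tested genes under that unadjusted threshold was not counted there.

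**Figure D4:**
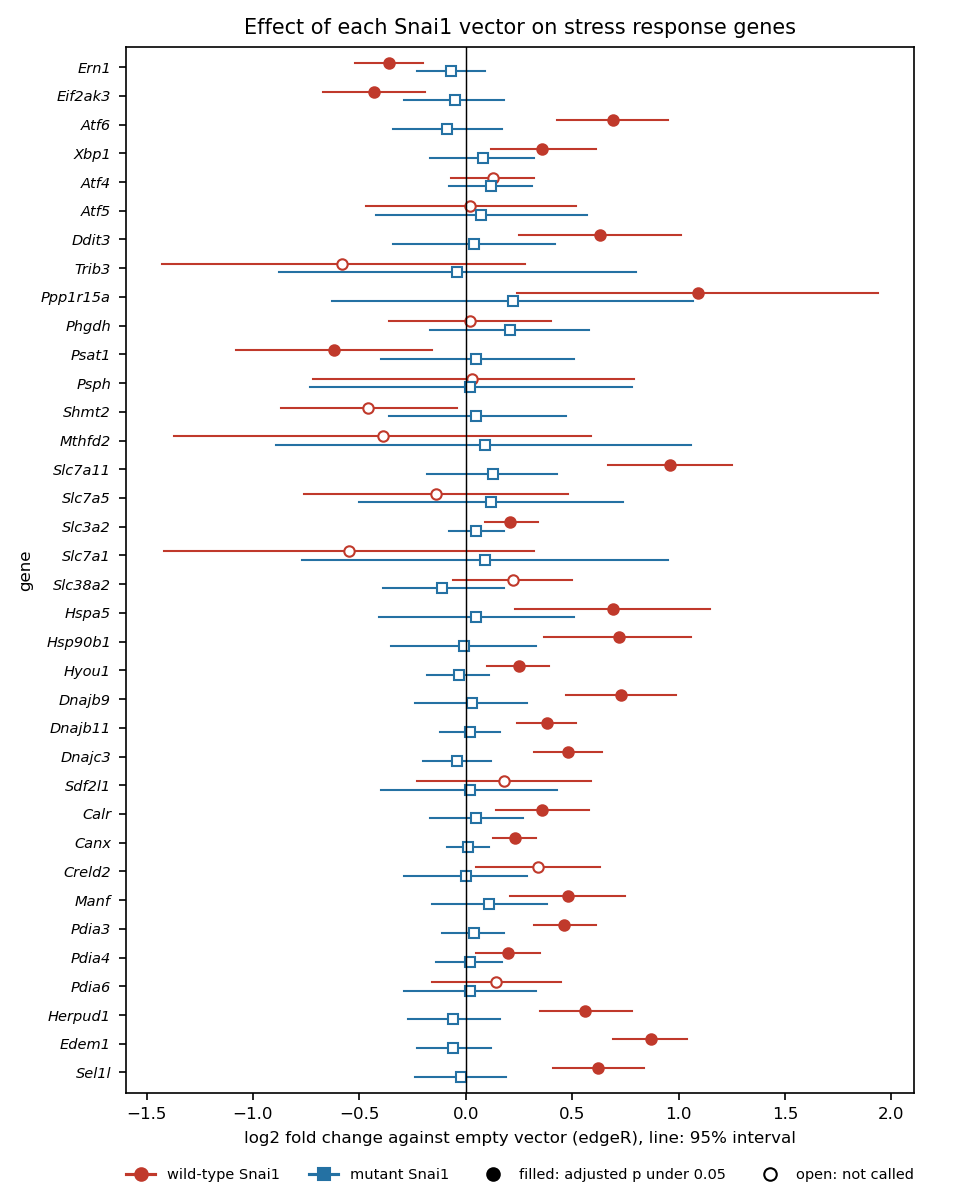
Log2 fold change against empty vector of each tested member with its 95% interval (edgeR), for wild-type Snai1 (red circles) above mutant Snai1 (blue squares), filled where the adjusted p was under 0.05. The mutant estimates lie between -0.11 and 0.22 and every interval crosses 0, while the wild-type ER members lie to the right.

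Set against each other directly, wild-type and mutant Snai1 differed in 21 members. With wild-type Snai1, 17 members were higher and 4 lower than with mutant Snai1 (edgeR, adjusted p under 0.05), against 24.5% and 23.4% of all tested genes (47.9% in either direction). The median log2 fold change was 0.28 over the members and -0.01 over all tested genes. The values did not overlap in 14 members with wild-type higher and 3 with wild-type lower, against 27.5% and 28.3% of all tested genes. Both comparisons of wild-type Snai1 use the same wild-type libraries, so their counts are not independent. With all libraries, Edem1 differed by 0.93 (SE 0.08, edgeR adjusted p = 7.52e-06), Slc7a11 by 0.84 (SE 0.13, 0.000462), Atf6 by 0.78 (SE 0.12, 0.000394) and Hsp90b1 by 0.73 (SE 0.15, 0.00338). Dnajb9 differed by 0.70, Sel1l by 0.65, Hspa5 by 0.63 (edgeR adjusted p = 0.0292), Herpud1 by 0.62 and Ddit3 by 0.59 (0.0158). The lower members were Psat1 at -0.67 (edgeR adjusted p = 0.0226), Shmt2 at -0.51 (0.0459), Eif2ak3 at -0.38 (0.0151) and Ern1 at -0.30 (0.00633). Xbp1 at 0.29 (edgeR adjusted p = 0.051) and Ppp1r15a at 0.86 (0.0864) did not pass, and Atf4 differed by 0.01 (95% interval -0.18 to 0.20, edgeR adjusted p = 0.934). Without wild-type replicate 1 the counts were 24 higher and 11 lower, with a median of 0.36, against 29.7% and 28.2% of all tested genes. The differences were then 1.00 for Edem1, 0.74 for Slc7a11, 0.62 for Atf6, 0.92 for Hsp90b1, 0.57 for Dnajb9, 0.52 for Sel1l, 0.87 for Hspa5, 0.63 for Herpud1 and 0.77 for Ddit3. For the lower members other than Psat1 they were -0.81 for Shmt2, -0.45 for Eif2ak3 and -0.34 for Ern1. Xbp1 at 0.42 and Ppp1r15a at 1.22 then passed (edgeR adjusted p = 9.34e-06 and 0.000218), and Atf4 at 0.09 did not (0.245). The 4 lower calls became 1 without wild-type replicate 2, and 2 without wild-type replicate 3 or without mutant replicate 1, 2 or 3. Of the 21 calls, 13 held whichever library was left out, those of Ern1, Atf6, Slc7a11, Hsp90b1, Hyou1, Dnajb9, Dnajb11, Dnajc3, Canx, Pdia3, Herpud1, Edem1 and Sel1l. Against empty vector 16 of 23 calls held, these 13 with Eif2ak3, Ddit3 and Manf.

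Beyond the members, 96 further pathway genes were listed and 85 tested, of which 30 rose and 11 fell with wild-type Snai1 against empty vector, with a median log2 fold change of 0.10, where 25.2% and 24.3% of all tested genes rose and fell. Without replicate 1 these counts were 33 and 26, against 29.9% and 28.8% of all tested genes. Against mutant Snai1, 26 were higher and 10 lower with wild-type Snai1, against 24.5% and 23.4%. The counts of the single lists below stand beside the same shares. Mutant Snai1 against empty vector gave 0 calls, and in the fit without wild-type replicate 1 it gave 1 in each direction, Ddit4 higher (edgeR adjusted p = 0.0475) and Cebpg lower (0.00227). Among 13 tested kinases and factors of the integrated stress response 5 rose and 1 fell, and 5 and 2 without replicate 1. Cebpg, which encodes a partner of Atf4 on the amino acid element, fell to 120 ± 3.95 CPM with wild-type Snai1, was 221 ± 15.5 CPM with mutant Snai1 and 286 ± 3.64 CPM with empty vector (SD, n = 3 each). The wild-type log2 fold change was -1.25 (SE 0.06, edgeR adjusted p = 1.31e-07), and that of the mutant, -0.37, did not pass (edgeR adjusted p = 0.156). Without replicate 1 the wild-type log2 fold changes were -1.23 for Cebpg, 1.17 for Ddit4 and 3.70 for Cebpb. Ddit4, an inhibitor of mTORC1 signalling, rose by 1.28 to 183 ± 22.7 CPM with wild-type Snai1, with 97.9 ± 10.7 CPM in mutant and 75.3 ± 5.44 CPM in empty vector libraries (SD, n = 3 each, edgeR adjusted p = 6.03e-06). Cebpb, a C/EBP factor of myeloid cells and stress, rose by 3.38 (SE 0.42, edgeR adjusted p = 0.000102). Gdf15, a stress-induced secreted factor, had 47, 50 and 23 counts with wild-type Snai1, 2, 1 and 1 with mutant Snai1, and 1, 1 and 0 with empty vector, and was called higher (edgeR adjusted p = 2.79e-05).

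Most of the further amino acid genes were also highest in wild-type replicate 1 among the wild-type libraries. This held for 8 of 11 tested metabolism genes, while Slc43a1, an amino acid transporter gene, and Shmt1, the cytosolic serine hydroxymethyltransferase gene, had it lowest. Of the 11, 2 rose and 3 fell, near the shares over all genes, and without replicate 1 these were 2 and 6. The proline synthesis genes Pycr1 and Aldh18a1 fell by 1.49 (edgeR adjusted p = 0.0168) and by 0.73 (0.00278), while Mthfd1l, of mitochondrial folate metabolism, rose by 0.32 (0.00206) and the aspartate aminotransferase gene Got1 by 0.39 (0.0224). Without replicate 1 the log2 fold changes were -2.44 for Pycr1, -0.97 for Aldh18a1, 0.31 for Mthfd1l and 0.22 for Got1, all called. Of 13 cytosolic aminoacyl-tRNA synthetases, which load amino acids on tRNA, 0 rose and 1 fell with all libraries, and 0 and 12 without replicate 1. Lars, the leucine enzyme, had a log2 fold change of -0.44 (edgeR adjusted p = 0.0273), and those of Vars (-0.15), Tars (-0.19) and Mars1 (-0.25) did not pass (0.0531, 0.101 and 0.19). Without replicate 1 they were -0.67 for Lars, -0.32 for Tars and -0.49 for Mars1, all called, and -0.10 for Vars, not called (edgeR adjusted p = 0.0898). Replicate 1 was above both other wild-type libraries in 12 of 13, and the list's medians relative to empty vector were 0.19, -0.37 and -0.45 in wild-type replicates 1, 2 and 3.

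Further ER genes moved in both directions. Of 15 tested folding and redox genes 6 rose and 2 fell (7 and 2 without replicate 1). Ero1a, the oxidase that recharges disulfide isomerases, rose by 0.68 (SE 0.08, edgeR adjusted p = 7.51e-05), the thioredoxin-like Txndc5 by 0.29 and Uggt1, the glucosyltransferase that checks glycoprotein folding, by 0.23, while the isomerase-like Erp29 had -0.30 (0.000772). Of 11 tested degradation genes 7 rose and 2 fell (8 and 2 without replicate 1). Selenos rose by 0.70 (edgeR adjusted p = 0.000783) and Vcp, the ATPase that pulls proteins out of the membrane, by 0.22 (0.00359). The relatives of Edem1 went the other way, Edem3 at -0.78 (edgeR adjusted p = 0.000174) and Edem2 at -0.48 (0.000653). Of 17 genes of translocation into the ER 8 rose and 1 fell, as without replicate 1, with Ssr1 at 0.36, Srprb at 0.32, Srp72 at 0.27 and Srp68 at -0.42 (edgeR adjusted p between 6.36e-05 and 0.00167). Of 5 genes related to Atf6 and its cleavage 2 rose and 1 fell (3 and 1 without replicate 1). Atf6b, a relative of Atf6, rose by 0.36 (edgeR adjusted p = 0.000509), and Creb3, another cleaved membrane factor, by 0.60 (0.00314). The protease genes that cleave Atf6 had 0.13 for Mbtps1, which did not pass (0.0756), and -0.19 for Mbtps2, which fell (0.0348). Without replicate 1, Mbtps1 at 0.17 was called higher (edgeR adjusted p = 0.00477), and the other ER and cleavage genes named here kept their call and sign.

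Per length of gene, in CPM per kilobase of the deposited gene length (RPKM), Calr had the highest level of the members and Slc7a11 the lowest of those tested. Calr was at 448 ± 59.9 RPKM with wild-type Snai1 and 350 ± 27.1 RPKM with empty vector, and Pdia3 at 297 ± 18.7 RPKM with wild-type Snai1 and 216 ± 9.16 RPKM with empty vector (SD, n = 3 each). Slc7a11 was at 1.26 ± 0.173 RPKM with wild-type Snai1 and 0.646 ± 0.0406 RPKM with empty vector. Of the sensors, Atf6 was at 26.1 ± 4.58 RPKM, Ern1 at 13.7 ± 0.907 RPKM and Eif2ak3 at 5.42 ± 0.501 RPKM with wild-type Snai1. With empty vector they were at 16.2 ± 1.64, 17.7 ± 0.416 and 7.31 ± 0.776 RPKM, where Atf6 and Ern1 differed by less than the SD of Atf6. In both groups Atf4 had a higher level per length than any of the sensors, at 86.4 RPKM with wild-type Snai1 and 79.2 RPKM with empty vector.

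Markers of other blood cells moved with the same libraries. Calls in these lists stand beside 25.2% of all tested genes higher and 24.3% lower with wild-type Snai1. Of the 10 monocyte and macrophage markers 10 rose with wild-type Snai1, and their summed level was 1340 to 1660 CPM with wild-type Snai1, 698 to 790 CPM with mutant Snai1 and 676 to 713 CPM with empty vector. Fcgr3 made most of the mutant and empty vector sums, at 714 ± 43.5 and 664 ± 18.4 CPM (SD, n = 3 each). With wild-type Snai1 it was at 772 ± 22.8 CPM, a log2 fold change of 0.22 (edgeR adjusted p = 0.0103). The log2 fold changes of the other monocyte and macrophage markers ran from 2.35 for Cd68 upwards. The 10 late neutrophil markers summed to 64.4 to 144 CPM with wild-type Snai1, 1.65 to 2.80 CPM with mutant Snai1 and 1.70 to 2.90 CPM with empty vector. Of its 5 tested markers 3 rose, and Lcn2, at 53.5, 84.7 and 111 CPM with wild-type Snai1, made most of the sum, while Ltf (-0.18) and Cxcr2 (-0.58) did not pass, Retnlg was at 0 in every library, and Ngp, S100a8 and S100a9 were near 0. The call of Mmp8 (edgeR adjusted p = 0.0301), 1 of the 3, was lost without wild-type replicate 1 (0.0802). Erythroid markers were lower: 4 of 4 tested fell, with Gata1 at -2.22 (edgeR adjusted p = 4.07e-06), and the 7 summed to 13.4 to 16.6 CPM with wild-type Snai1, 33.9 to 38.5 CPM with mutant Snai1 and 30.4 to 32.7 CPM with empty vector, with Hba-a1 and Hbb-bs at 0 throughout. Of the markers of plasma cells, which are rich in ER, the defining factors Prdm1 and Irf4 had 0 counts in every library, and all 8 markers summed to 10.3 to 13.5 CPM with wild-type Snai1, 3.49 to 3.94 CPM with mutant Snai1 and 3.46 to 4.91 CPM with empty vector. Of that list Sdc1, which other cells also express, rose to 9.02 ± 1.05 CPM with wild-type Snai1, against 0.497 ± 0.109 CPM with empty vector (SD, n = 3 each, edgeR adjusted p = 5.87e-07), and Mzb1 fell. The part of a shift in cell type in the ER and amino acid results was not tested, and in bulk RNA more cells of a type and more RNA per cell cannot be told apart.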

How the data were processed

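The deposited values are raw counts for each gene. Per the submitters' processing notes the authors counted with featureCounts against mm10, from TruSeq stranded mRNA libraries, per the labels' protocols. Aligner, annotation and strand setting are not given in the sources used here. Gene lengths came with the counts in the deposited table. RefSeq symbols were matched for 25275 of 27179 genes, and exon overlaps were read from GENCODE M21.

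In R 4.3.3, edgeR 4.0.16 was used with filterByExpr (12484 genes kept), TMM scaling (factors 0.967 to 1.028) and 1 robust quasi-likelihood fit of all 9 libraries, which all 3 comparisons share, with Benjamini-Hochberg adjustment over all tested genes. The median biological coefficient of variation was 9.05%. CPM use the TMM-scaled library sizes, log2 CPM a prior count of 2, and RPKM the deposited lengths. Intervals of fold changes are at 95%, and a floor of 3 counts covers counting error only. The fit was tested on simulated data. The members and all lists were chosen with earlier results of these data known, so no list was tested.

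Full values were given for members called with a fold of at least 1.5 in any comparison and for Hspa5, Xbp1, Atf4, Ddit3, Ern1, Eif2ak3 and Atf6. Up to 4 genes with the smallest adjusted p were named from each pathway list. Other values of single members were chosen after they were seen. Alternatives were RLE size factors, no filter on low counts, DESeq2 1.42.0, limma-voom (limma 3.58.1), only the 6 libraries compared, a replicate block and each library left out.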

Additional observations from a re-analysis of the deposited data

How the results depend on the processing

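For wild-type Snai1 against empty vector, 16 of 23 member calls held under every alternative. The members called lower numbered 3 with all libraries and between 2 and 11 with 1 library left out, 11 being without wild-type replicate 1. The members' median log2 fold change of 0.24 ran between 0.22 and 0.36, 0.36 being without that replicate. Without it, against empty vector, Atf5 reversed to -0.34 (edgeR adjusted p = 0.00742), Phgdh to -0.25 (0.00413) and Psph to -0.54 (0.000108), and against mutant Snai1 Psph reversed to -0.57 (7.18e-05). The highest values with another library left out were 0.20 for Atf5, 0.18 for Phgdh and 0.29 for Psph, and 0.26 for Psph against mutant Snai1, none called. Leaving the library out shows that it carried these signs, and why it differs was not tested. For mutant Snai1 against empty vector every alternative called 0 members, while over all tested genes DESeq2 called 5 higher and 3 lower, limma-voom 2 higher, and a fit of the 6 libraries compared 13 higher and 17 lower. With 1 library left out these counts ran between 1 and 28 higher and 0 and 34 lower. For wild-type against mutant Snai1, members called lower were 2 in place of 4 without the filter on low counts, and between 1 and 11 with 1 library left out. The replicate numbers did not pair the libraries: same-number correlations of deviations from group means ran between -0.087 and 0.21, with 2 of 9 above 0.1, and 4 of 9 libraries were closest to their own number. With the replicate block, 18 members were called higher and 4 lower against empty vector (median 0.24), where 23.8% and 23.3% of all tested genes were, 16 and 4 against mutant Snai1, where 23.3% and 22.6% were, and 0 for mutant Snai1. Among members not called, between 0 and 7 per setting and comparison changed sign. Asns, with 0 counts in every library, and Chac1, with at most 3, lay at or below the floor of 3 counts (0.144 to 0.164 CPM). Whether depth or something else gave these low counts was not tested.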
